A study of Rattus norvegicus with 16 samples.

Results

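Chemokines and their receptors were examined as a group of 45 genes among 14217 genes that carried exactly 1 symbol on the array. A gene was a member if its symbol began with Ccl, Cxcl, Xcl, Cx3cl, Ccr, Cxcr, Cx3cr or Ackr followed by a digit, and it was represented by its probe set with the highest mean log2 signal. The members were 29 ligands, 12 signalling receptors and 4 atypical receptors, measured by 58 probe sets. Chemokines are small secreted or membrane-bound proteins that direct the movement of blood cells, and their receptors are G protein-coupled receptors on the cells that respond. In bone, Cxcl12 from marrow stromal cells holds blood stem cells and precursors in the marrow through the receptor Cxcr4, while other ligands guide the exit and entry of monocytes, granulocytes and lymphocytes and the supply of osteoclast precursors. Atypical receptors bind chemokines without activating G proteins and take them up or carry them across cell layers.

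Total RNA from the proximal femur, which includes the femoral neck, was hybridised to 16 Affymetrix arrays from inbred rats aged 4 weeks. Fischer 344 rats (F344), Lewis rats (LEW), Copenhagen 2331 rats (COP) and Dark Agouti rats (DA) had 4 arrays each. The study asked about genes behind a skeletal locus at the femoral neck on chromosome 4, found in an F2 cross of F344 and LEW, and of the members only Cxcl12 lies on that chromosome in the RefSeq annotation of the assembly GRCr8. The labels give no sex and do not say that replicates were separate animals. A p-value therefore sets a difference of strain means only against the spread among these arrays within strains. It may not hold for other animals of a strain, and the number of arrays limits the precision. Signals are in the authors' scaled units, with a 2% trimmed mean near 1000 on each array. Signals of different probe sets are not amounts of RNA on a common scale, so levels are compared between strains and not between genes.

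The RNA carried the marks of bone with cartilage and muscle, and summed signals of marrow cell genes are given with the members below. A sum adds probe sets that are not on a common scale, so its brightest probe sets weigh most and it does not count cells. Osteoblast genes such as Col1a1, a bone collagen chain (61574 for F344, 62520.2 for LEW, 62034 for COP and 67322 for DA, mean signals, n = 4 each), were bright in each strain, as were Col2a1 of cartilage (55857, 53280.2, 54557 and 56598 in the same order) and Acta1 of skeletal muscle (55985, 54847, 55265 and 61359). Of 6 osteocyte genes measured, 4 passed the filter described next, and Sost and Fgf23 lay under it. In such a mixture, fewer cells of a type and less RNA per cell cannot be told apart, and this holds for each strain difference given here.

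Of the 45 members, 21 passed a filter on low signals, set at the 40th percentile of all mean log2 values, a signal of 174. These were 11 ligands, 7 signalling receptors and 3 atypical receptors. Of the 21, 3 had several probe sets that passed. The strain differences of the others rest on the signal of a single probe set. The member just inside the filter was Cxcr3 with a geometric mean signal of 176 and the member just outside was Ccl17 with 172. The geometric means of the 21 kept members ran up to 18419 for Cxcl12 and 7089 for Cxcr4. The 24 members under the filter had signals between 2.93 and 313 on single arrays, and 11 of them were under the filter signal on every array.

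**Figure D1:**
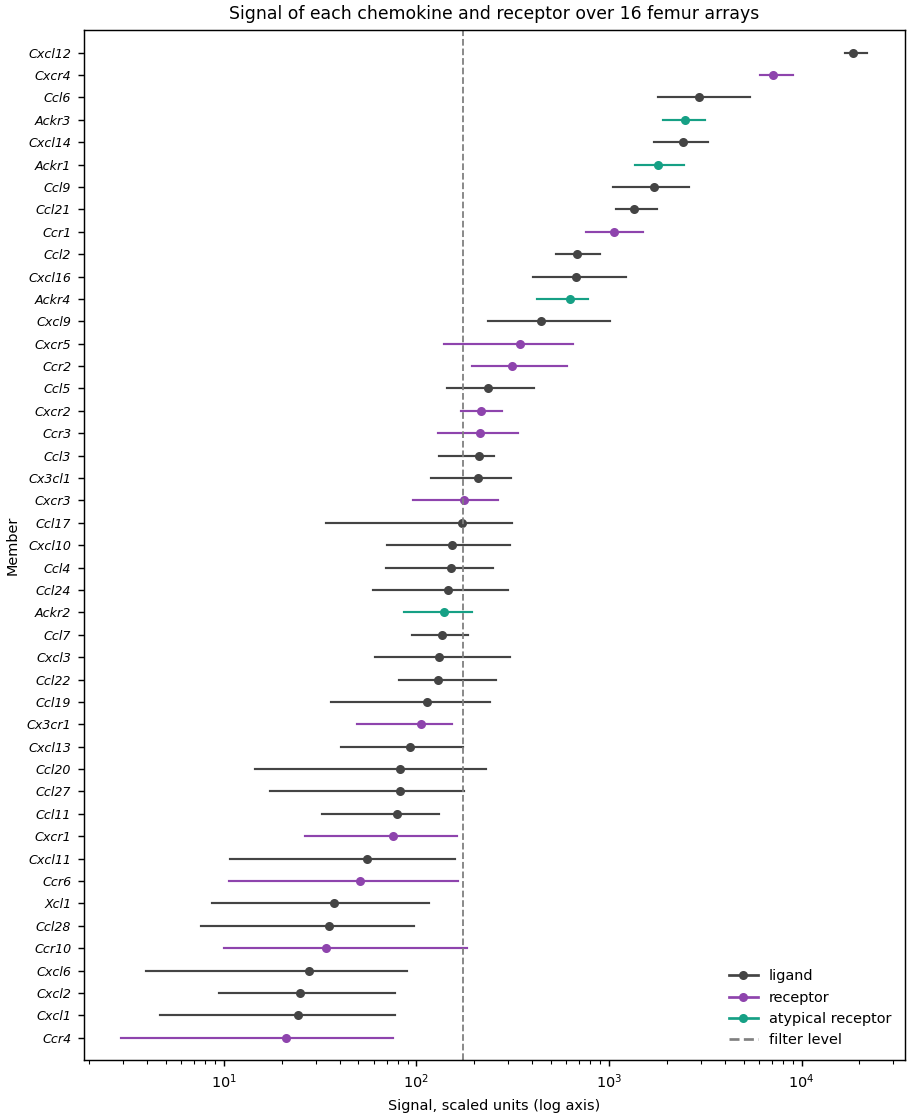
Signals of the 45 members on 16 arrays of the proximal femur, on a log axis in scaled units. Points are geometric means over the 16 arrays, lines run from the lowest to the highest array, colours give ligands, receptors and atypical receptors, and the dashed line is the filter signal of 174, which 21 members passed; levels of different probe sets are not comparable amounts.

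Strain differences were found in ligands of T cells, monocytes and the marrow niche and in receptors of each class. F344 femora had the highest mean signals of Cxcl9, Cxcl16, Ccl5, Ackr3 and Ackr4, and COP femora the highest of Ccl6, Ccr2, Ccl9 and Cxcr4. DA femora were highest for Ccr1, Ackr1 and, on 2 of its 3 kept probe sets, Cxcl12, and LEW femora for Cxcl14 and Ccl21, though strains next to each other in these orders often overlapped. These 14 members passed the limma F-test over the 4 strains at an adjusted p under 0.05, which is 66.7% of the 21 members kept, against 31.2% of all 18625 probe sets kept. These shares are of unlike sets, since a member is its brightest probe set and the others include dimmer probe sets of a gene. With the mean of each gene's probe sets, 13 members and 3450 of 10548 genes passed. The highest strain mean was at least 2-fold over the lowest for 5 of the 14 members, Cxcl9 (3.63-fold), Ccl6 (2.77-fold), Ccr2 (2.38-fold), Ccl5 (2.29-fold) and Cxcl16 (2.14-fold). The F-test calls of 12 members held in each of 16 fits that left out 1 array. Those of Ccl21 and Cxcl12 did not, as described with these genes below.

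**Figure D2:**
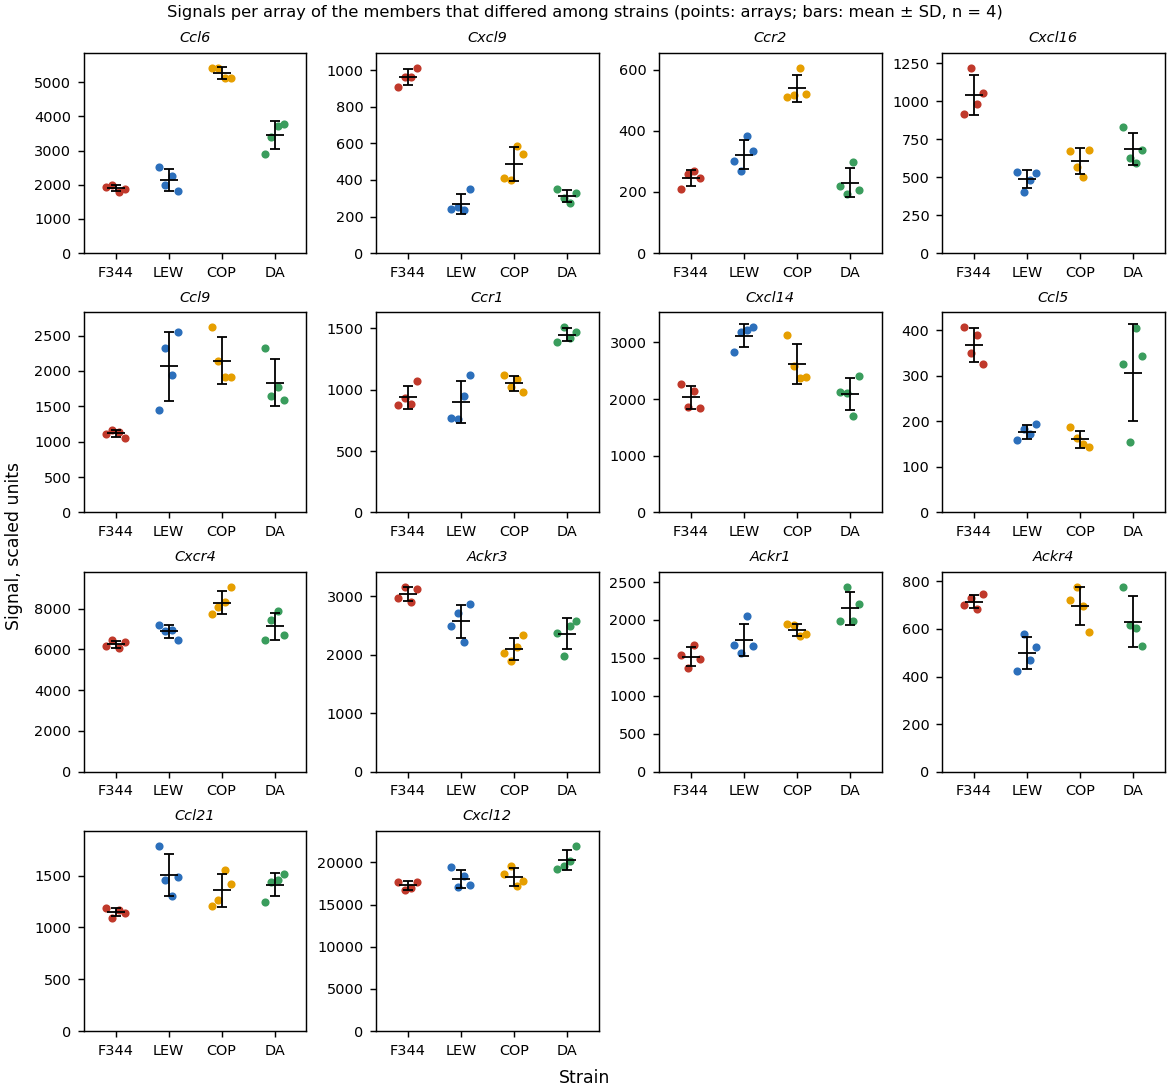
Signals in scaled units, on linear axes from 0, of the 14 members that passed the F-test over F344, LEW, COP and DA, in the order of their adjusted p. Points are single arrays and black bars are the mean ± SD of 4 arrays; the F344 points of Cxcl9 and Cxcl16 and the COP points of Ccl6 and Ccr2 lie clear of the other strains.

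Between the parental strains of the F2 cross, 7 members differed, in both directions. In F344 minus LEW, 4 of the 21 members rose (Cxcl9, Cxcl16, Ccl5 and Ackr4), beside 6.53% of all probe sets, and 3 fell (Ccl9, Cxcl14 and Ccl21), beside 7.25%. The log2 differences of the calls ran from -0.86 for Ccl9, a ligand of Ccr1 in mice, to 1.86 for Cxcl9. The median difference was 0.072 over the 21 members and 0.0081 over all probe sets. All 7 calls kept an adjusted p under 0.05 in each of 16 fits without 1 array. A fit without LEW replicates 1 and 4 together was added after seeing the data. They were left out because they lay at opposite ends of the LEW group in summed erythroid and cartilage signal. The COP arrays spread more widely in cartilage signal, from 96301 to 145804 against 102203 to 136744 for LEW. No such fit was made for COP. In that fit Ackr4 had 0.46 (adjusted p = 0.0566) and Ccl21 had -0.26 (adjusted p = 0.131).

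In COP minus DA, the other pair of strains that shares no array with the first, 5 members rose, beside 5.94% of all probe sets, and 2 fell, beside 5.93%. Ccr2, the receptor that takes monocytes out of the marrow, rose most (1.25), followed by Ccl6 and Cxcl9 (both 0.62), Cxcl14 (0.32) and Cxcr4 (0.22), while Ccl5 (-0.85) and Ccr1 (-0.46) fell. The median was 0.076 over the 21 members and 0.012 over all probe sets. Of the 7 calls, 4 held in each fit without 1 array. Cxcl14 lost its call in 8 of 16 such fits (highest adjusted p = 0.168, without COP replicate 1), and Cxcr4 lost it without COP replicates 2, 3 or 4 or DA replicates 1 or 4 (highest 0.105, without COP replicate 4). Ccl5 lost it without DA replicate 3 (-0.69, adjusted p = 0.0659) and without DA replicate 4 (-0.77, adjusted p = 0.0518).

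The remaining 4 contrasts share arrays with those already given and with each other, so their calls are not independent. In F344 minus COP, 4 members rose (Cxcl9, Cxcl16, Ccl5 and Ackr3), beside 9.40% of all probe sets, and 6 fell (Ccl6, Ccr2, Ccl9, Cxcl14, Cxcr4 and Ackr1), beside 10.5%. The median was -0.12 over the members and -0.0096 over all probe sets. Cxcl14 (-0.36) lost its call without F344 replicate 2 (adjusted p = 0.0553), F344 replicate 4 (0.0544) or COP replicate 1 (0.0669), and Ackr1 (-0.31) without F344 replicate 2 (0.0722) or COP replicate 2 (0.0519). In F344 minus DA, 3 members rose (Cxcl9, Cxcl16 and Ackr3), beside 7.66% of all probe sets, and 6 fell (Ccl6, Ccl9, Ccr1, Ackr1, Ccl21 and Cxcl12), beside 8.44%. The median was -0.038 over the members and -0.0017 over all probe sets. Ccl21 (-0.30) lost its call in 7 of the 16 fits, each without 1 F344 array or without DA replicates 2, 3 or 4 (highest adjusted p = 0.105, without DA replicate 4).

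In LEW minus COP, Ackr3 alone rose, which is 1 of 21 members beside 6.25% of all probe sets, and 5 members fell (Ccl6, Cxcl9, Ccr2, Cxcr4 and Ackr4), beside 7.49%. The median was -0.20 over the members and -0.016 over all probe sets. Ackr3 (0.29) lost its call without LEW replicates 2 or 4 or COP replicates 1, 2 or 3, with the highest adjusted p of 0.114 without COP replicate 2. In LEW minus DA, 2 members rose (Ccr2 and Cxcl14), beside 5.03% of all probe sets, and 5 fell (Ccl6, Cxcl16, Ccr1, Ccl5 and Ackr1), beside 5.42%. The median was -0.13 over the members and -0.012 over all probe sets. Here 3 of 7 calls held in each fit without 1 array, those of Ccl6 (-0.69), Ccr1 (-0.70) and Cxcl14 (0.59). Ccl5 (-0.72) lost its call in 14 of 16 fits (highest adjusted p = 0.161, without DA replicate 3) and Ccr2 (0.50) in 13 (highest 0.144, without LEW replicate 3). Ackr1 (-0.32) lost it without LEW replicates 1, 2 or 4 or DA replicates 2 or 4 (highest 0.0968, without DA replicate 2), and Cxcl16 (-0.49) without LEW replicate 2 (0.0808) or DA replicate 1 (0.0735).

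**Figure D3:**
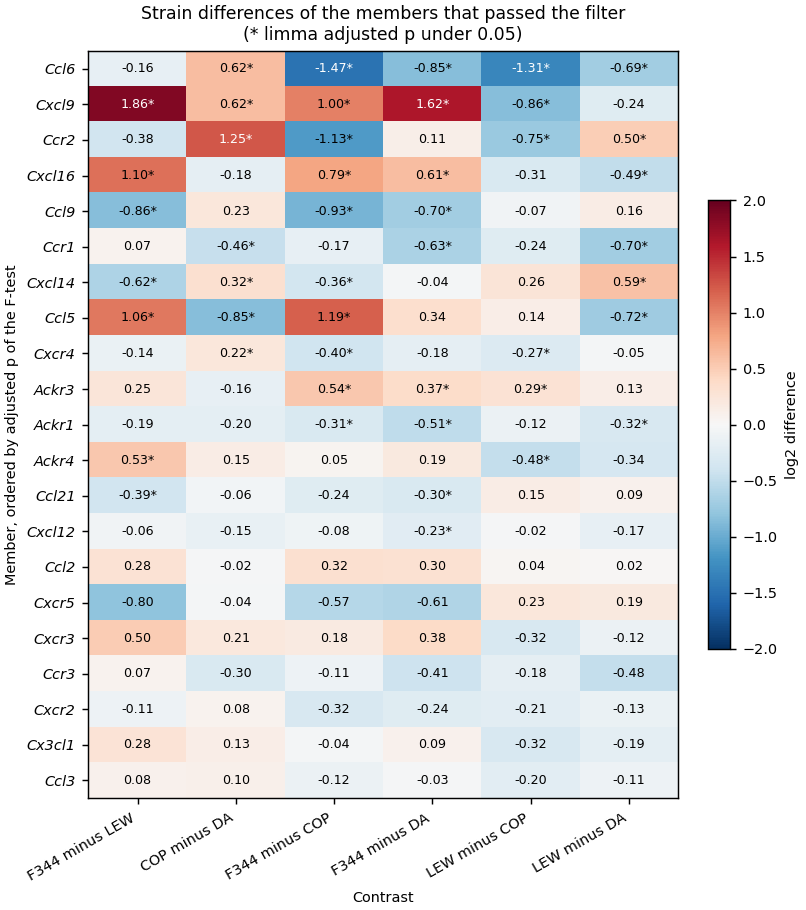
Log2 differences of the 21 members that passed the filter (rows, ordered by the adjusted p of the F-test) in the 6 strain contrasts (columns), with the first strain of each contrast minus the second. Red is higher and blue lower in the first strain, and a star marks a limma adjusted p under 0.05; the F344 minus LEW column runs from -0.86 for Ccl9 to 1.86 for Cxcl9.

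Cxcl9, Cxcl10 and Cxcl11 are the interferon-inducible ligands of Cxcr3, a receptor of activated T cells and natural killer cells. They lie next to each other on chromosome 14 in GRCr8, and their promoters are shown because these neighbours share a receptor but only Cxcl9 passed the filter. Each line holds 250 bases before to 50 after the RefSeq start of the GRCr8 reference (not of the strains measured), on the plus strand: chr14:16006916-16007215 for Cxcl9, chr14:15988816-15989115 for Cxcl10 and chr14:15973478-15973777 for Cxcl11. Capitals mark matches on either strand to GAAANNGAAA (the core of the interferon-stimulated response element), GGGANNNNCC (an NF-kappaB site) or TTCNNNGAA (a Stat GAS site).
Cxcl9: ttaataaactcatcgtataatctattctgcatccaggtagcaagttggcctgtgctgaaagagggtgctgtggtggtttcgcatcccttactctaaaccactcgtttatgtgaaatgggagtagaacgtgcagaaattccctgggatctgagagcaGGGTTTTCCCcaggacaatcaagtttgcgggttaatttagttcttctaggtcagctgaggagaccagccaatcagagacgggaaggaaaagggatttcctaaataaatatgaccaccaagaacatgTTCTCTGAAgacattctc
Cxcl10: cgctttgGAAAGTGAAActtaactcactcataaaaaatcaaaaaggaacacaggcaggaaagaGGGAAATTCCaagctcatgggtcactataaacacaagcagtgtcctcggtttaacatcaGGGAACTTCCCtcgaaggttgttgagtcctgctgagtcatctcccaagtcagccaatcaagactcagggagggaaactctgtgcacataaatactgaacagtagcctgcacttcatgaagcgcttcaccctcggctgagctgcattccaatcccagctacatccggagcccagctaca
Cxcl11: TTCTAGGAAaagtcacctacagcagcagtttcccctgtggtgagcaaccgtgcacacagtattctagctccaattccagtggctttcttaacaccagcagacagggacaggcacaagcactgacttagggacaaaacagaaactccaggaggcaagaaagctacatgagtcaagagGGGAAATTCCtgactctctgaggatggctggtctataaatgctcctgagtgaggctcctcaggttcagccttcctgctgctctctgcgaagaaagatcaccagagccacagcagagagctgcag
The interferon-stimulated core was found in the Cxcl10 window at -243 to -234 from the start. An NF-kappaB match was found in each window, at -94 to -85 on the minus strand for Cxcl9, at -74 to -65 for Cxcl11, and for Cxcl10 at -187 to -178 and at -128 to -119, the last of these overlapped by a minus-strand match at -127 to -118. A Stat GAS match lay at 33 to 41 after the start of Cxcl9 and at -250 to -242 for Cxcl11. Of 33469 promoter windows in the RefSeq table, 3.92% held the interferon-stimulated core, 19.3% the NF-kappaB letters and 8.87% the Stat GAS letters. Among the 35 members with a window these were 2, 14 and 6 members, and a match describes the letters only.

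Cxcl9 differed most between the parental strains. Its representative probe set gave 907, 962, 965 and 1013 in F344, 239, 251, 235 and 351 in LEW, 414, 402, 587 and 541 in COP, and 348, 302, 276 and 329 in DA. Each F344 array was above each array of the other strains, COP was above LEW and DA, and the LEW and DA arrays overlapped. F344 minus LEW was 1.86 (SE 0.15, limma adjusted p = 9.03e-09), a 3.63-fold difference, F344 minus COP was 1.003 (adjusted p = 4.31e-05) and F344 minus DA 1.62 (adjusted p = 8.87e-08). LEW minus DA was -0.24 with an adjusted p of 0.362. A dimmer Cxcl9 probe set that also passed the filter gave 785, 672, 695 and 751 in F344 and 183, 87.1, 122 and 147 in LEW, with 278, 322, 328 and 372 in COP and 146, 74.3, 172 and 199 in DA. It showed the same order of strains, with F344 minus LEW at 2.48 (SE 0.25, adjusted p = 4.01e-07).

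Cxcl10 and Cxcl11 were under the filter. Cxcl10 gave 227, 307, 196 and 258 in F344, 122, 113, 70.3 and 163 in LEW, 202, 157, 106 and 129 in COP, and 148, 147, 120.3 and 151 in DA. The F344 arrays were above those of LEW and DA and overlapped those of COP. With no filter Cxcl10 passed the F-test (adjusted p = 0.0341), beside 17.6% of all 31042 probe sets, and rose in F344 minus LEW (1.12, SE 0.28, adjusted p = 0.0145), beside 3.46%. Cxcl11 had means of 94.4 ± 57.3 for F344, 44.2 ± 33.2 for LEW, 70.9 ± 8.18 for COP and 59.4 ± 24.5 for DA (SD, n = 4 each), and its F344 minus LEW difference of 1.16 had an SE of 0.67 and an adjusted p of 0.382. Their receptor Cxcr3, just inside the filter, had means of 216 ± 43.7 for F344, 156 ± 47.5 for LEW, 189 ± 23.2 for COP and 164 ± 24.5 for DA, and did not pass the F-test.

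Cxcl16, a membrane-bound ligand of activated T cells and natural killer T cells that also takes up oxidised lipoprotein, was highest in F344 too. It gave 916, 1221, 981 and 1056 in F344, 533, 404, 483 and 528 in LEW, 674, 567, 501 and 679 in COP, and 832, 627, 597 and 681 in DA. The F344 arrays lay above the arrays of each other strain, and COP overlapped both LEW and DA. The F344 minus LEW difference was 1.10 (SE 0.13, limma adjusted p = 4.13e-06), F344 minus COP 0.79 (adjusted p = 0.000181) and F344 minus DA 0.61 (adjusted p = 0.00258).

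Ccl5, a ligand of Ccr1 and Ccr3 made by T cells and natural killer cells, gave 407, 351, 389 and 325 in F344, 158, 184, 171 and 194 in LEW, 187, 163, 150.4 and 145 in COP, and 326, 155, 404 and 344 in DA. F344 lay above LEW and COP without overlap, while in DA replicate 2 was at the level of LEW and COP and the other DA arrays were above the lowest F344 array. The log2 difference F344 minus LEW was 1.06 (SE 0.22, limma adjusted p = 0.00257) and F344 minus COP 1.19 (adjusted p = 0.000622), and F344 minus DA was 0.34 with an adjusted p of 0.332. Markers of T and natural killer cells moved in part with these ligands. Of 11 listed, 5 passed the filter, while Cd3d, Cd3e, Cd2, Cd8a, Klrd1 and Prf1 were under it. Both calls in F344 minus LEW were rises, Cd3g (1.04) and Il2rb (1.07), beside 6.53% of all probe sets. The summed signal of the 11 genes was 6080.5 to 6325 for F344, 4590 to 5270.3 for LEW, 7157 to 8146 for COP and 4467 to 5795 for DA, so it was highest in COP, where Ccl5 was low. The part of these cells in the Cxcl9, Cxcl16 and Ccl5 differences was not tested.

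Ccl6 and Ccl9 are neighbouring CC chemokine genes of rodents, known in mice as ligands of Ccr1 made by myeloid cells, and Ccl9 in mice also by osteoclasts. They lie beside Ccl5, Ccl3 and Ccl4 on chromosome 10 in GRCr8, in the order Ccl5, Ccl9, Ccl6, Ccl3 and Ccl4. Ccl6 had the lowest adjusted p of the members in the F-test (1.89e-10). It gave 1924, 2006, 1799 and 1883 in F344, 2510.2, 1988, 2261 and 1804 in LEW, 5412, 5420.1, 5120.1 and 5139 in COP, and 2898, 3387, 3734 and 3778 in DA. COP was above DA and DA above both F344 and LEW, which overlapped. F344 minus COP was -1.47 (SE 0.09, limma adjusted p = 2.20e-10), LEW minus COP -1.31 (adjusted p = 1.42e-09), COP minus DA 0.62 (adjusted p = 7.54e-05), F344 minus DA -0.85 (adjusted p = 9.64e-07) and LEW minus DA -0.69 (adjusted p = 1.63e-05).

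Ccl9, like its neighbour Ccl6, had its highest mean in COP and its lowest in F344, but LEW and DA changed places. For Ccl9 LEW minus DA was 0.16 (limma adjusted p = 0.579). It gave 1109, 1170.3, 1137 and 1053 in F344, 1445, 2327, 1942 and 2551 in LEW, 2618, 2136, 1918 and 1909 in COP, and 2321, 1651, 1771 and 1596 in DA. F344 was below every array of the other strains, and these overlapped among themselves. Its F344 minus LEW difference was -0.86 (SE 0.14, limma adjusted p = 0.000281), F344 minus COP -0.93 (adjusted p = 8.48e-05) and F344 minus DA -0.70 (adjusted p = 0.00185). Ccl3, the next gene along and another Ccr1 ligand, had means of 209 ± 31.4 for F344, 202 ± 50.1 for LEW, 228 ± 32.2 for COP and 213 ± 30.3 for DA (SD, n = 4 each) and did not pass the F-test. Ccl4 was under the filter.

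Genes of the mast cell, basophil and eosinophil list went both ways between these strains. The summed signal of 7 mast cell, basophil and eosinophil genes was 30709 to 34073 for F344, 24115 to 32024 for LEW, 57289 to 62816 for COP and 39485 to 49437 for DA. More than any other gene of the list, Prg2, a granule protein of eosinophils, made up this sum, with mean signals of 17617 for F344, 16529.5 for LEW, 37292 for COP and 30135 for DA. The sum of 6 neutrophil genes was 126262 to 131755 for F344, 135568 to 154005 for LEW, 151772 to 161654 for COP and 140618 to 165871 for DA. In F344 minus COP, 2 of 6 kept genes of the mast cell, basophil and eosinophil list rose, the mast cell and basophil proteases Cpa3 (0.89) and Mcpt8 (0.70). Of the same list 2 fell, Prg2 (-1.08) and Epx (-1.50), another eosinophil granule protein. The 4 calls among 6 neutrophil genes were falls. Over all probe sets 9.40% rose and 10.5% fell in this contrast. The part of these cells in the Ccl6 difference was not tested.

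Ccr1 and Ccr2 are the receptors of monocytes and osteoclast precursors for these ligands and for Ccl2. Ccr1 gave 871, 928, 881 and 1073 in F344, 766, 763, 949.7 and 1122 in LEW, 1119, 1024, 1084 and 978 in COP, and 1386, 1508, 1423 and 1467 in DA. The DA arrays were above those of the other strains, which overlapped. F344 minus DA was -0.63 (SE 0.11, limma adjusted p = 0.000314), LEW minus DA -0.70 (adjusted p = 9.76e-05) and COP minus DA -0.46 (adjusted p = 0.00667).

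Ccr2 gave 208, 259.5, 270.1 and 247 in F344, 303, 269, 383 and 335 in LEW, 511, 519, 606 and 520.2 in COP, and 220.0, 194, 299 and 206 in DA. COP stood above the other strains, and F344, LEW and DA overlapped. COP minus DA was 1.25 (SE 0.16, limma adjusted p = 9.38e-06), F344 minus COP -1.13 (adjusted p = 2.15e-05) and LEW minus COP -0.75 (adjusted p = 0.00201). Its ligand Ccl2, which draws monocytes out of the marrow, had means of 808 ± 95.7 for F344, 661 ± 43.1 for LEW, 658 ± 169 for COP and 652 ± 47.2 for DA (SD, n = 4 each) and did not pass the F-test (adjusted p = 0.177). Without COP replicate 1, whose signal of 899 was above the other COP arrays at 528 to 653, the adjusted p of the F-test for Ccl2 was 0.0189. In GRCr8 the genes Ccr1, Ccr3 and Ccr2 lie together on chromosome 8 with 1 protein-coding gene between Ccr3 and Ccr2, and Ccr3 did not pass the F-test.

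Monocyte and macrophage markers were measured beside these receptors. The 11 markers passed the filter. In F344 minus LEW 6 rose, beside 6.53% of all probe sets, and 0 fell (list median 0.30). The rises included Fcgr3a (0.99) and Mertk (0.61), and Ccr1 and Ccr2 had no call in this contrast. In COP minus DA, 2 markers rose, Cd14 (0.43) and Cd68 (0.31), beside 5.94% of all probe sets. In the same contrast 3 fell, Adgre1 (-0.42), Mrc1 (-0.44) and Cd163 (-0.50), beside 5.93%. The summed signal of the 11 genes was 61288 to 64429 for F344, 60599 to 66004 for LEW, 67533 to 71400.5 for COP and 63904 to 77268 for DA. The highest mean of this sum was for DA and the next for COP, as for Ccr1, whereas Ccr2 was highest in COP and lowest in DA. Single markers did not all follow the sum, whose mean was 62469 for F344, below 63687 for LEW and 70772 for DA. In F344 minus DA 3 markers rose and 2 fell (list median 0.059), beside 7.66% and 8.44% of all probe sets. The part of these cells in the receptor differences was not tested.

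Cxcl12, its receptor Cxcr4 and the atypical receptor Ackr3, which scavenges Cxcl12, form the axis that retains blood precursors in marrow. Cxcl12 gave 17728, 16719.6, 16973 and 17649 in F344, 19420.0, 17095, 18417 and 17348 in LEW, 18609.7, 19580.5, 17164 and 17773 in COP, and 19258, 19617, 20212 and 21954 in DA. The strain means differed by at most 1.17-fold, and DA overlapped LEW and COP and lay above F344. F344 minus DA was -0.23 (SE 0.06, limma adjusted p = 0.00889), a difference that held in each fit without 1 array. The F-test call (adjusted p = 0.0232) was lost without F344 replicate 2 (0.0544), F344 replicate 3 (0.0520), DA replicate 3 (0.0544) or DA replicate 4 (0.0767), with no filter (0.0523), without the intensity trend (0.0684) and with the mean of the 3 probe sets (0.0958).

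The 3 kept Cxcl12 probe sets disagreed. The middle one gave 5492, 6061, 5614 and 5954 in F344, 6453, 5757, 6088 and 6054 in LEW, 5597, 5971, 5533 and 6090.1 in COP, and 7235, 5988, 7289 and 7299.9 in DA, with 3 of 4 DA arrays above every array of the other strains and COP minus DA at -0.26 (SE 0.07, limma adjusted p = 0.0126). The dimmest gave 1414, 1699, 1662 and 1342 in F344, 1482, 1718, 1644 and 1689.9 in LEW, 1945, 1894, 1884 and 1821 in COP, and 1309, 1426, 1671 and 1712 in DA. Here the COP arrays were above all others, and COP minus DA was 0.31 (SE 0.09, adjusted p = 0.0315). No strain order of Cxcl12 held over its probe sets.

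Cxcr4 was highest in COP on each of its 3 kept probe sets. The brightest gave 6154, 6437, 6063 and 6361 in F344, 7205, 6923, 6953 and 6455 in LEW, 7718, 8052, 8301 and 9078 in COP, and 6437, 7449, 7887 and 6712 in DA. The COP arrays lay above F344 and LEW and overlapped DA. F344 minus COP was -0.40 (SE 0.07, limma adjusted p = 0.000144) and LEW minus COP -0.27 (adjusted p = 0.00789). On the other probe sets F344 minus COP was -0.56 (SE 0.08, adjusted p = 3.34e-05) and -0.52 (SE 0.09, adjusted p = 0.000214), and LEW minus COP was -0.38 (adjusted p = 0.00200) and -0.49 (adjusted p = 0.000493).

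Ackr3 ran the other way, highest in F344. It gave 2976, 3169, 2906 and 3121 in F344, 2498, 2718, 2224 and 2863 in LEW, 2025, 1902, 2134 and 2345 in COP, and 2369, 1982, 2499 and 2581 in DA. Each F344 array was above each other array, and LEW overlapped COP and DA. F344 minus COP was 0.54 (SE 0.09, limma adjusted p = 0.000178), F344 minus DA 0.37 (adjusted p = 0.00605) and F344 minus LEW 0.25 (adjusted p = 0.0746). The last reached 0.0335 without LEW replicate 4 and 0.0454 without DA replicate 2. Of the marrow reticular cells that make Cxcl12, 6 of 7 measured markers passed the filter, Angpt1 did not, and the summed signal was 13781 to 14612 for F344, 12620.1 to 13392 for LEW, 12033 to 12819 for COP and 12930 to 14667 for DA. Their part in these differences was not tested.

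**Figure D4:**
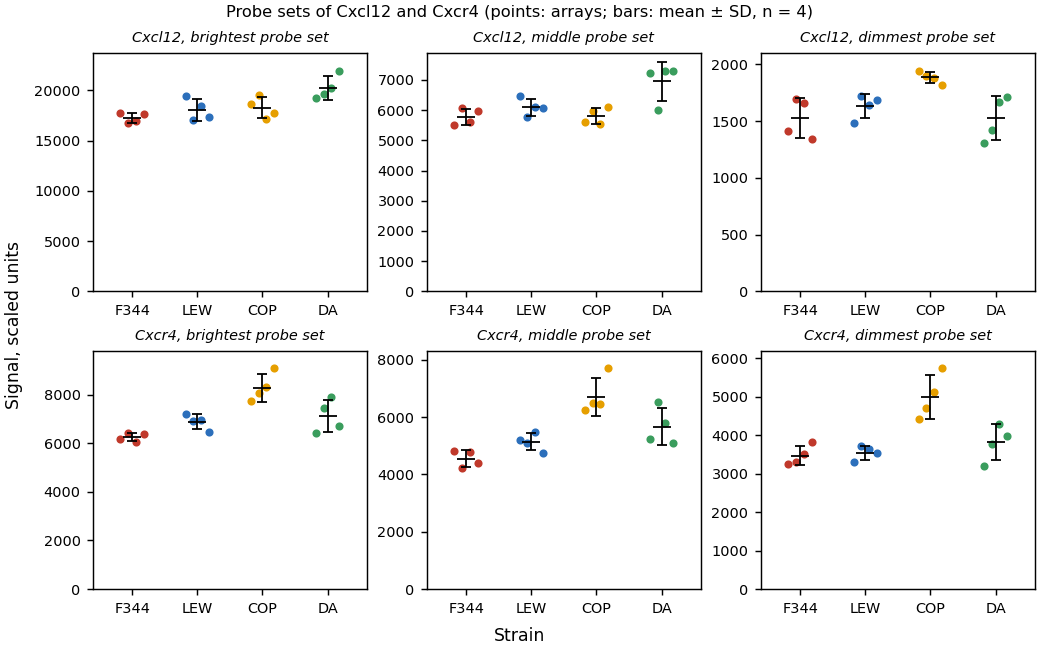
Signals in scaled units, on linear axes from 0, of the 3 kept probe sets of Cxcl12 (top) and of Cxcr4 (bottom) in F344, LEW, COP and DA. Points are arrays and black bars the mean ± SD of 4 arrays; Cxcr4 is highest in COP in each panel, while Cxcl12 is highest in DA on the brightest and middle probe sets and in COP on the dimmest.

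Cxcl14 and Ccl21 are ligands made without inflammation by stromal and epithelial cells, and Ccl21 guides T cells and dendritic cells through Ccr7. Cxcl14 gave 2263, 1868, 2146 and 1839.9 in F344, 2826, 3176, 3212 and 3267 in LEW, 3124, 2577, 2371 and 2389 in COP, and 2132, 2115, 1709 and 2405 in DA. LEW lay above F344 and DA and overlapped COP at COP replicate 1. F344 minus LEW was -0.62 (SE 0.10, limma adjusted p = 0.000204) and LEW minus DA 0.59 (adjusted p = 0.000440). Ccl21 gave 1185, 1093, 1170.2 and 1139 in F344, 1786, 1453, 1305 and 1489 in LEW, 1204, 1260.0, 1556 and 1420.4 in COP, and 1248, 1439.8, 1454 and 1514 in DA. The F344 arrays were below those of each other strain by small margins. F344 minus LEW was -0.39 (SE 0.10, adjusted p = 0.00983), and the F-test call (adjusted p = 0.0214) was lost without F344 replicate 2 (0.0713) or F344 replicate 4 (0.0541).

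Ackr4, the scavenger of Ccl19 and Ccl21, was lowest in LEW. The mean of Ccl21 was highest there, but its LEW arrays overlapped those of COP (limma adjusted p = 0.375) and DA (0.654). A link between these genes was not tested. Ackr4 gave 699, 732, 683 and 746 in F344, 422, 577, 469.8 and 522 in LEW, 720.3, 778, 695 and 586 in COP, and 778, 615, 603 and 527 in DA. LEW was below F344 and COP without overlap and overlapped DA. F344 minus LEW was 0.53 (SE 0.12, limma adjusted p = 0.00576) and LEW minus COP -0.48 (adjusted p = 0.0104). The F-test call (adjusted p = 0.00841) was 0.0845 without LEW replicates 1 and 4 together.

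Ackr1, the Duffy receptor of red cell precursors and venules, was highest in DA. It gave 1534, 1373, 1675 and 1486 in F344, 1666, 1566, 2049 and 1662 in LEW, 1947, 1934, 1790.3 and 1817 in COP, and 1983, 2440.1, 1986 and 2215 in DA. DA was above F344 and COP without overlap, and the highest LEW array lay within the DA range. F344 minus DA was -0.51 (SE 0.09, limma adjusted p = 0.000418). The summed signal of 7 erythroid genes was 132568 to 146460.0 for F344, 155316 to 179266 for LEW, 137221 to 148065 for COP and 158702 to 179052 for DA, so LEW and DA were both above F344 there. In F344 minus DA the 3 erythroid calls were falls, beside 8.44% of all probe sets. The part of red cell precursors in the Ackr1 difference was not tested.

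The 7 kept members without an F-test call were Ccl2, Ccl3, Cx3cl1, Cxcr2, Cxcr3, Cxcr5 and Ccr3. Cxcr2, a receptor of neutrophils, had means of 195 ± 26.3 for F344, 212 ± 44.1 for LEW, 241 ± 14.4 for COP and 233 ± 52.4 for DA (SD, n = 4 each). Ccr3, the eotaxin receptor of eosinophils, had 203 ± 52.5 for F344, 189 ± 18.7 for LEW, 219 ± 55.5 for COP and 268 ± 63.5 for DA, and no contrast passed although the eosinophil genes Prg2 and Epx were highest in COP. Cx3cl1, a membrane-anchored ligand, had 227 ± 55.2 for F344, 184 ± 27.1 for LEW, 242 ± 85.1 for COP and 217 ± 69.6 for DA.

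Cxcr5, the receptor that takes B cells into follicles, had the largest SE of the kept members in the fit. It gave 327, 440.4, 139 and 184 in F344, 411, 332, 379 and 654 in LEW, 292, 398, 467 and 329.7 in COP, and 217, 428, 443 and 480.0 in DA. The strains overlapped, with F344 minus LEW at -0.80 (SE 0.31, limma adjusted p = 0.0936). Without F344 replicate 2 this was -1.08 (adjusted p = 0.0231), and the F-test reached 0.0428. All 6 kept markers of the B lineage fell in F344 minus LEW, beside 7.25% of all probe sets. The summed signal of these markers was 14260 to 15235 for F344, 23948 to 27211 for LEW, 24011 to 28238 for COP and 17248 to 21719 for DA. Their part in the Cxcr5 values was not tested.

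The 24 members under the filter were the ligands Ccl4, Ccl7, Ccl11, Ccl17, Ccl19, Ccl20, Ccl22, Ccl24, Ccl27, Ccl28, Cxcl1, Cxcl2, Cxcl3, Cxcl6, Cxcl10, Cxcl11, Cxcl13 and Xcl1, the receptors Ccr4, Ccr6, Ccr10, Cxcr1 and Cx3cr1, and the atypical receptor Ackr2. They include the neutrophil-attracting ligands Cxcl1, Cxcl2, Cxcl3 and Cxcl6, which lie close together on chromosome 14 in GRCr8. With no filter, 2 of the 24 passed the F-test, Cxcl10 and Ccl24, an eotaxin, beside 17.6% of all 31042 probe sets. Ccl24 gave 131, 144, 196 and 148 in F344, 129, 159, 119 and 137 in LEW, 59.5, 93.7, 167 and 84.4 in COP, and 189, 300.2, 231 and 213 in DA. DA was above LEW and COP, and COP minus DA was -1.29 (SE 0.29, limma adjusted p = 0.00840 with no filter), beside 3.21% of all probe sets called lower there. A dim signal was not read as absence of the RNA.

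Chemokines that the naming rule does not reach included Pf4 and Ppbp, the platelet chemokines Cxcl4 and Cxcl7. Of 7 such genes kept, 1 rose and 2 fell in F344 minus LEW (list median -0.014), beside 6.53% and 7.25% of all probe sets. The 2 calls in COP minus DA were rises (median 0.13), beside 5.94%. Pf4 had mean signals of 9485 for F344, 28736 for LEW, 24810 for COP and 22533 for DA, with F344 minus LEW at -1.59 (limma adjusted p = 1.24e-12). Ppbp had 5114 for F344, 5102 for LEW, 8189 for COP and 4827 for DA, with COP minus DA at 0.77 (adjusted p = 5.17e-05). The chemokine-like factor Cklf had 3377 for F344, 4020 for LEW, 5913 for COP and 2543 for DA, with COP minus DA at 1.23 (adjusted p = 5.24e-11).

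Of 18 kept G proteins and effectors, which pass on the signal of chemokine receptors, 1 rose and 1 fell in F344 minus LEW. Over all probe sets 6.53% rose and 7.25% fell there. In COP minus DA 4 rose and 0 fell, beside 5.94% and 5.93% of all probe sets (list median 0.12, against 0.012 over all). The 7 calls in F344 minus COP were falls, beside 10.5% of all probe sets (median -0.21, against -0.0096). The 5 in LEW minus COP were also falls, beside 7.49% (median -0.16, against -0.016). F344 minus DA had 3 falls, beside 8.44%, and LEW minus DA 1, beside 5.42%. Contrasts that share arrays are not independent, and whether the contrasts differed was not tested. Gng2, a G protein gamma subunit, had mean signals of 1074 for F344, 1206 for LEW, 1683 for COP and 1234 for DA, and Vav1, an exchange factor for Rac, had 498, 605, 763 and 623 in the same order. Of 14 arrestins, receptor kinases and RGS proteins, which end the signal, 2 rose and 6 fell in F344 minus COP (median -0.15). Over all probe sets 9.40% rose and 10.5% fell there. In F344 minus LEW 1 rose, Rgs4 (0.50), beside 6.53% of all probe sets, and 3 fell, beside 7.25%. The falls included Rgs18 (-0.42), found in platelets, and Grk2 (-0.34), a kinase that silences chemokine receptors.

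Genes of the marrow niche around Cxcl12 moved in both directions. Of 12 kept, 2 rose and 2 fell in COP minus DA (list median 0.18) and 1 rose and 1 fell in F344 minus LEW (median -0.0067). Over all probe sets, 5.94% rose and 5.93% fell in COP minus DA, and 6.53% rose and 7.25% fell in F344 minus LEW. Dpp4, a protease that cuts Cxcl12, had mean signals of 1020.0 for F344, 1222 for LEW, 1746 for COP and 1301 for DA, so it was highest in COP as Cxcr4 was. Cd74, a receptor of the cytokine Mif, had 7038 for F344, 4509 for LEW, 4585 for COP and 6138 for DA.

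Of the genes that induce inflammatory and interferon-inducible chemokines, 10 were kept, and Tnf, Il1a, Ifng, Il6, Il4 and Il13 were under the filter. Both calls in F344 minus LEW were rises, Irf7 (0.92, limma adjusted p = 0.000689) and Irf1 (0.78, adjusted p = 9.44e-06), interferon regulatory factors, in a list with a median of 0.065. Among all probe sets 6.53% were called higher there. Irf1 had mean signals of 2073 for F344, 1206 for LEW, 1355 for COP and 1816 for DA, and Irf7 had 1580.0 for F344, 850.0 for LEW, 2137 for COP and 1783 for DA. Cxcl9 was highest in F344, as Irf1 was, while DA had the second highest mean of Irf1 and a Cxcl9 signal that overlapped that of LEW. Both calls in COP minus DA were falls, Irf1 (-0.44) and Il1b (-0.58), beside 5.93% of all probe sets. The part of these genes in the Cxcl9 difference was not tested.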

How the data were processed

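The deposited microarray intensities hold 1 linear signal for each probe set on each array. Per the submitters' processing notes MAS5 made them, with no version given. Scaling target, detection calls, filters and genome build are not given in the sources used here, but the values show that the authors scaled each array to a 2% trimmed mean near 1000, with array medians of 303 to 325. Such scaling sets the level of an array, and dim signals carry more noise.

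Names came from the platform annotation, and the symbols of all 45 members matched RefSeq. From 31099 probe sets 57 controls were left out, values under 1 were raised to 1, log2 was taken with no pseudocount, and the 40th percentile filter left 18625. With limma 3.58.1 (R 4.3.3), strain means were fitted over the 16 arrays, with an intensity trend and 12 residual degrees of freedom, for an F-test and 6 two-sided contrasts. P-values were adjusted by Benjamini-Hochberg over what the filter left, and the threshold was 0.05. The fit was tested on simulated data. Members were given array by array if they passed the F-test or were among the 6 brightest, pathway genes by the largest range of strain means among those called, and others by group or where a description turned on them. The members and all lists were chosen with earlier results of these data known, and no test was made over a list. Promoters are from RefSeq GRCr8 and matched 35 of 45 members. Alternatives were other normalizations (quantile, median centring), a pseudocount of 19.3, no filter or one at the 60th percentile, no trend, robust moderation, array weights, a block for replicate numbers, averaging a gene's probe sets, fits of 8 arrays of a strain pair, an adjusted p under 0.10 and leaving out each array. Figures used matplotlib 3.10.9.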

Additional observations from a re-analysis of the deposited data

Results flagged for a closer look

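In groups of 4 arrays, a single array was marked where its gap to the nearest other array, divided by the range of the group, passed Dixon's critical value for groups of this size. This marked 4 of 84 groups of kept members, where chance alone gives about 4.2, or 1 in 20. Cxcl9 had a signal of 351 on LEW replicate 4, above the other LEW arrays at 235 to 251 and still below every F344 and COP array. Ccr2 had a signal of 606 on COP replicate 3, above the other COP arrays at 511 to 520.2, and the call of COP minus DA held without that array (1.19, limma adjusted p = 8.81e-05). Ccr3 had a signal of 136 on COP replicate 1, below the other COP arrays at 243 to 252. Cxcr5 had a signal of 217 on DA replicate 1, below the other DA arrays at 428 to 480.0.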

How the results depend on the processing

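The alternatives named above were joined by the fit without LEW replicates 1 and 4, added after seeing the data. Over all of these, 195 recomputed counts of called members stayed within 1.5 times the reported count and 7 did not. Direction was checked for the 14 members called by the F-test, in 1 contrast each. This was F344 minus LEW where that was called, and otherwise the contrast with the lowest adjusted p. None changed direction, but a contrast picked for its low adjusted p made a change unlikely from the start. In COP minus DA the 7 calls were 4 with a filter at the 60th percentile, which leaves fewer members tested, and 4 in a fit of the 8 COP and DA arrays alone. In LEW minus DA the 7 calls were 4 to 6 over the fits without 1 array, with 4 without LEW replicate 2, LEW replicate 4 or DA replicate 1, 4 without LEW replicates 1 and 4, and 4 in a fit of the 8 LEW and DA arrays alone. The fits without 1 array gave 13 to 15 calls in the F-test, 7 to 8 in F344 minus LEW, 5 to 7 in COP minus DA, 8 to 10 in both F344 minus COP and F344 minus DA, and 5 to 6 in LEW minus COP. Median centring left 3 rises and 2 falls among the members in COP minus DA, against 5 and 2 as reported, and over all probe sets in LEW minus COP it gave 1377 rises and 1087 falls, against 1164 and 1395. Replicate numbers did not pair the arrays: 0 of 24 pairs with the same number in different strains had correlated deviations over 0.1 (median -0.0019), and 4 of 16 arrays lay closest to their own number. With the replicate number as a block the F-test called 14 members, and the contrasts lost Cxcl14 in COP minus DA, Ccl21 in F344 minus DA and Ccl5 in LEW minus DA (6, 8 and 6 calls). Arrays give no depth, and 24 members had mean signals under the filter signal of 174.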
